A study of Homo sapiens with 2 samples.

Results

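CIITA and 9 genes of the MHC class II pathway were examined for PRDM1 binding in U266, a human cell line established from multiple myeloma, a plasma cell tumour. These were CIITA, CD74, HLA-DRA, HLA-DRB1, HLA-DQA1, HLA-DQB1, HLA-DMB, HLA-DMA, HLA-DPA1 and HLA-DPB1. Binding was mapped by chromatin immunoprecipitation and sequencing (ChIP-seq) with 1 library from a rabbit monoclonal antibody against PRDM1 (clone C14A4) and 1 library of input DNA, for which no antibody was used. Both libraries came from U266 cells that carried no added treatment or allele in the labels, although their growth protocol also mentions NCI-H929, another myeloma line. With 1 library of each kind and 1 cell line there was no replicate, and no test between samples was possible. A peak was counted for a gene when its summit lay within 25 kb of the gene's interval, given to the nearest kb in GRCh37 coordinates. The rule takes peaks by position and uses no tag count, but the genes themselves were picked with earlier results of these data known. By this rule 6 of the 9669 peaks in the complete list belonged to the 10 genes.

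PRDM1 (BLIMP-1) represses transcription through its zinc fingers and is needed for B cells to become plasma cells, which secrete antibodies. MHC class II molecules present peptides from ingested proteins to CD4+ T cells, and B cells lose them when they become plasma cells. CIITA is the coactivator that switches the class II genes on. It does not bind DNA by itself but joins the RFX, CREB and NF-Y proteins that sit on the short promoter elements shared by these genes. CIITA is a known target of repression by PRDM1 and is transcribed from several alternative promoters.

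Of the PRDM1 tags in the 6 listed peaks, most lay at CIITA. Its strongest peak held 237 tags, where the input background predicted 10.1. Of the 10 genes, 4 had a peak within 25 kb: CIITA had 3, HLA-DMA had 2, and CD74 and HLA-DMB had 1 each. Windows of the same lengths slid along each gene's chromosome held a peak at shares of positions that sum to 1.65 of 10 genes. The merged windows held 6 peaks, against 1.61 at the mean peak density of their chromosomes and 1.63 at that of the genome. These means cover the whole span between the first and last peak of a chromosome, with or without genes. Windows placed on other genes were not examined, and no chance test was made of these counts. The 14-tag peak between HLA-DMB and HLA-DMA counts for both. The other 6 genes, HLA-DRA, HLA-DRB1, HLA-DQA1, HLA-DQB1, HLA-DPA1 and HLA-DPB1, had none. The 3 CIITA peaks held 292 of the 339 tags in the 6 peaks, or 86.1%, and the 237-tag peak alone held 69.9%. The CIITA window was also the longest, at 98 kb against 55 to 61 kb for the other genes. Tags outside listed peaks are not known.

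The strength of a peak decides how far it can be read. The authors' false discovery rate (FDR) compares each peak with those called when ChIP and input are swapped. Of the 6 peaks, 2 had an FDR of at most 5%, against 43.5% of the complete list, and both were at CIITA. At the authors' stricter limits, which add a minimum of 50 tags, 1 of the 6 passed, against 9.17% of the complete list. The other 4 peaks, at CD74, beside HLA-DMB and HLA-DMA and 17.9 kb before CIITA, had FDR values of 14.24% to 27.86%. The median of the 6 peaks was 21 tags and 4.65 times the expected tags, against 15 tags and 5.88 times over all peaks. Thus 1 peak at CIITA stood far above the list and the other 5 lay below its median ratio. Ranks by ratio and by tags differ, since a peak of few tags could be listed only with a raised ratio. The 34-tag CIITA peak ranked 7383 by ratio, but 1569 by tags and 2066 by score among the 9669 peaks.

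**Figure D1:**
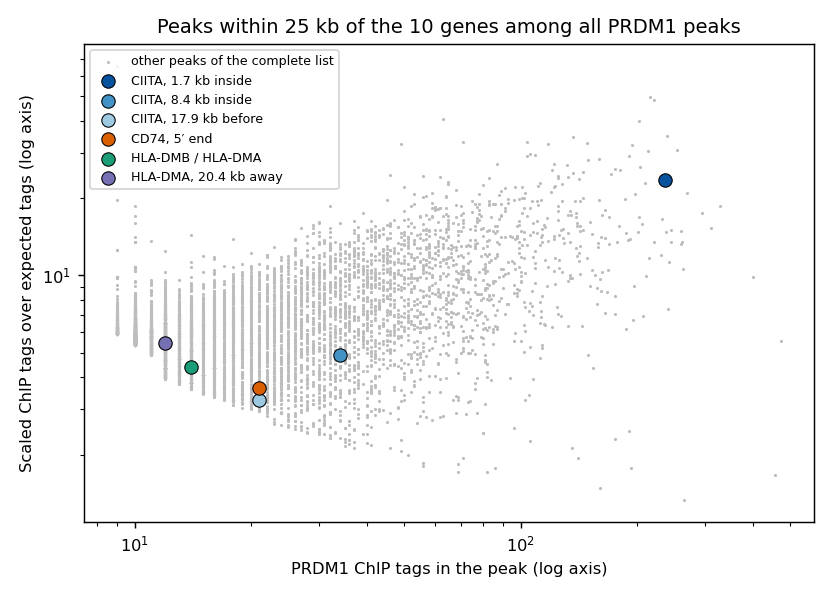
Each point is 1 of the PRDM1 peaks with a recovered background, by its ChIP tags (x, log axis) and its scaled tags over the expected tags (y, log axis); grey points are the other peaks and coloured points the 6 peaks near the 10 genes. The CIITA peak with 237 tags lies at the upper right, at 23.5 times the expected tags, and the other 5 lie between 3.27 and 5.43 times.

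The CD74 promoter is shown because a peak covered the 5′ end of that gene, and the HLA-DPB1 promoter because it holds as many matches to the same short core with no peak within 25 kb. Both are RefSeq sequences of GRCh38.p14, from 250 bases before to 50 bases after the start, written in the direction of the gene. Capitals mark the letters GAAAG on either strand, which read CTTTC on the opposite strand. GAAAG is part of the sequence that PRDM1 recognises.
CD74, chr5:150412861-150413160, minus strand: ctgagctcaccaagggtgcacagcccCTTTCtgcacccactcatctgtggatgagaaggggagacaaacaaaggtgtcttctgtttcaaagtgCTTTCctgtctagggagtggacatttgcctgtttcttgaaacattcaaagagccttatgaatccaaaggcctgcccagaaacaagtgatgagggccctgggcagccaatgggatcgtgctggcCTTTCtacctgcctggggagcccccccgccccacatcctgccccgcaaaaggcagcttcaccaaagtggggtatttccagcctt
HLA-DPB1, chr6:33075740-33076039, plus strand: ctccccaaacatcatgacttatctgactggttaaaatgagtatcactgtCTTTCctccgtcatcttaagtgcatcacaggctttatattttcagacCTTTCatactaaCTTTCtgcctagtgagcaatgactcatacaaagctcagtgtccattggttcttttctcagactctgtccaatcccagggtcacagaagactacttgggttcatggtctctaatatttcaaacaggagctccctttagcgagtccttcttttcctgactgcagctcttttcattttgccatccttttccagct

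Each of these promoters had 3 matches to GAAAG, all on the opposite strand. Counted from the first transcribed base as 1, with no position 0, they began at -224, -157 and -34 in CD74 and at -201, -154 and -142 in HLA-DPB1. RefSeq windows were matched for 8 of the 10 genes, with a pair for HLA-DPA1, and 4 of these genes had GAAAG in a window: CD74, HLA-DQB1, HLA-DPA1 and HLA-DPB1. GAAAG was in 4 of the 9 windows of these genes and in 54.7% of 34796 RefSeq promoter windows of the same length. The longer form GGGAAAG, which contains GAAAG, occurs in 10% of them and in none of the 9 windows of these genes. CCAAT, the letters that NF-Y binds, occurred on either strand in 7 of the 9 windows, against 34.6% of all windows. By gene this was 7 of the 8, all but HLA-DPA1. Matches are descriptions of these letters only. CIITA and HLA-DRA were not among the matched windows.

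CIITA carried the strongest listed peak of these genes. The peak spanned 3266 bp, chr16:10970345-10973610 in GRCh37, with its summit 1.74 kb inside the start of the CIITA interval. It held 237 tags (95% Poisson interval 208 to 269), where the input predicted 10.1, a ratio of 23.5 (20.6 to 26.7). The interval covers the counting error of the ChIP tags only and takes the expected tags as exact. The input background there was 1.06 times the genome mean, so a raised input did not accompany the peak. At the summit 67 fragments overlapped, and the authors' fold over the local background was 99.46. Its FDR was 0, with 0 swapped peaks implied at its score of 2492.06 or above.

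Among all 9669 peaks this one ranked 14 by score, 22 by tags, 40 by tags over expected and 21 by width. On chromosome 16 it ranked 1 of 337 by tags and by score, and 2 by tags over expected. For comparison, the 887 peaks that pass the stricter limits had medians of 72 tags and 10.4 times the expected number. Its summit lay 73.3% of the way along the peak, towards the inside of the gene.

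A second peak lay inside CIITA, at chr16:10978631-10979710, with its summit 8.4 kb from the start of the interval and 6.66 kb beyond the first summit. It held 34 tags (23.5 to 47.5), where the input predicted 6.94, a ratio of 4.9 (3.39 to 6.85). The input background here was 2.21 times the genome mean. Its FDR was 0.15%, with 3 swapped peaks implied against 2066 PRDM1 peaks at its score or above. It therefore passed the FDR limit but not the tag minimum.

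The third peak lay 17.9 kb before the interval, at chr16:10952867-10953623. It held 21 tags (13 to 32.1), where the input predicted 6.43, a ratio of 3.27 (2.02 to 5). Its input background was 2.92 times the genome mean, the highest of the 6 peaks. Its FDR was 27.86%, so this call is weak. The RefSeq CIITA gene in GRCh38.p14 is 76.8 kb long and the interval used here is 48 kb. Some CIITA transcripts may therefore reach beyond the interval, and which CIITA promoter each peak lies nearest to was not determined.

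The number of peaks around CIITA was set beside the rest of chromosome 16. A window of 98 kb, which is the interval with 25 kb on each side, held 0.367 peaks on average when slid between the first and last peak of that chromosome. It held at least 1 peak at 26.7% of positions and at least 3 at 1.91% of positions. These shares are no chance test, because the count of 3 is that of CIITA itself. The gene was also picked with earlier results of these data known. The windows cover spans with or without genes, and the peak before CIITA had an FDR of 27.86%. The nearest peak beyond 25 kb that passed the stricter limits was 163.8 kb past the end of CIITA, at chr16:11181515-11184215, with 83 tags and 6.32 times the expected number. NUBP1 and TVP23A lie before CIITA, and DEXI and CLEC16A after it, in RefSeq gene order.

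**Figure D2:**
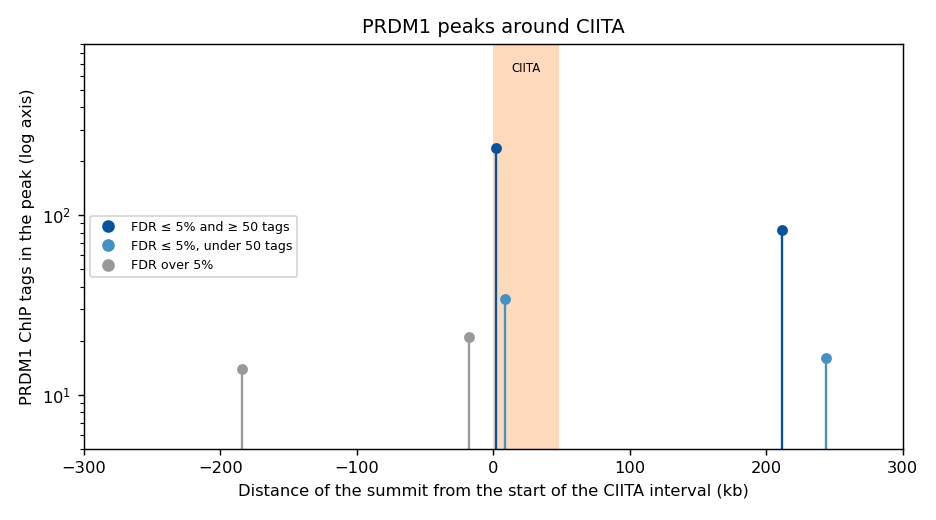
Each line is a PRDM1 peak by the distance of its summit from the start of the CIITA interval in kb (x) and its ChIP tags (y, log axis); the shaded band is the 48 kb interval and colours give the limits passed. The 237-tag peak stands at 1.7 kb, with the 34-tag peak at 8.4 kb and the 21-tag peak at -17.9 kb.

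CD74 encodes the invariant chain, which blocks the peptide groove of new class II molecules and guides them to the endosome. It had 1 peak, at chr5:149791875-149792774. The summit lay 0.27 kb beyond the upper end of the interval, which is the 5′ end of this minus-strand gene to the nearest kb. The peak held 21 tags (13 to 32.1), where the input predicted 5.78, a ratio of 3.63 (2.25 to 5.55). The interval of the ratio stayed above 1, which follows from the p cutoff that every listed peak had passed. Of all peaks, 94.4% had a higher ratio, but only 31.2% had more tags. By score it ranked 5617 among the 9669 peaks. Its FDR was 14.24%, with 800 swapped peaks implied against 5618 PRDM1 peaks at its score or above.

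The CD74 peak and the main CIITA peak both lay at the 5′ side of their gene, but they differed in size. The CIITA peak was 3266 bp wide and the CD74 peak 900 bp, so their tag sums cover different lengths. At the summit 67 fragments overlapped in the CIITA peak and 12 in the CD74 peak. The tags over expected were 23.5 (20.6 to 26.7) at CIITA and 3.63 (2.25 to 5.55) at CD74. These intervals did not overlap, but they leave out the counting error of the input. The input background at CD74 was 2.21 times the genome mean, against 1.06 times at the main CIITA peak. The next peaks of the complete list lay 277.2 kb from CD74 at lower coordinates, with 11 tags, and 211 kb from it at higher coordinates, with 13 tags. The nearest peak that passed the stricter limits lay 434.9 kb away, with 67 tags. A window of the same length on chromosome 5 held a peak at 15.5% of positions.

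HLA-DM exchanges the invariant chain fragment for antigen peptides. Its subunits are the alpha chain, encoded by HLA-DMA, and the beta chain, encoded by HLA-DMB. These genes are neighbours on the minus strand, and 1 peak lay between them at chr6:32911716-32912292. Its summit was 3.1 kb from HLA-DMB, on the 5′ side, and 3.9 kb from HLA-DMA, on the 3′ side. It held 14 tags (7.65 to 23.5), where the input predicted 3.18, a ratio of 4.41 (2.41 to 7.39). Its FDR was 23.17%, with 1473 swapped peaks implied against 6358 PRDM1 peaks.

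The other peak near HLA-DMA was at chr6:32941027-32941755, 20.4 kb from the gene on its 5′ side. BRD2 is the next protein-coding gene on that side in RefSeq order, before HLA-DOA. Whether the peak lies inside BRD2 was not determined, because the RefSeq genes are of another build. The peak held 12 tags (6.2 to 21), where the input predicted 2.21, a ratio of 5.43 (2.81 to 9.49). Its FDR was 14.77%. The peak is 32.4 kb from HLA-DMB, so it was not counted there. Neither peak of the HLA-DM genes passed an FDR of 5%.

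HLA-DRA and HLA-DRB1 encode the chains of HLA-DR, and HLA-DQA1 and HLA-DQB1 those of HLA-DQ. Both present peptides at the cell surface. None of these 4 genes had a peak within 25 kb. They lay together in a stretch of 477.5 kb with no summit, bounded by a 13-tag peak 90.1 kb before HLA-DRA and a 12-tag peak 161.5 kb after HLA-DQB1, in the order of the coordinates. For HLA-DRB1 the nearest summit was 229 kb away, and for HLA-DQA1 184.5 kb. The nearest peak that passed the stricter limits was 188.5 kb from HLA-DQB1 and 409.5 kb from HLA-DRA, and it held 74 tags.

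HLA-DPA1 and HLA-DPB1 encode the chains of HLA-DP, which also presents peptides at the cell surface, and had no peak within 25 kb. Their stretch without a summit measured 161.3 kb. It began at a 29-tag peak 45.2 kb before HLA-DPA1, with an FDR of 0.14%, and ended at a 9-tag peak 93.2 kb after HLA-DPB1, with an FDR of 47.6%. The lack of a peak at these 6 genes was common for intervals of their size. Windows of the same lengths slid along chromosome 6 held a peak at 14.8 to 16.1% of positions, which over the 8 class II genes of that chromosome sums to 1.23 genes, and 2 had one. On chromosome 6, 65.8% of the span between the first and last peak lay in stretches at least as long as the 477.5 kb one. The median stretch was 143 kb.

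A gene without a peak is not shown to be unbound. No peak in the list held fewer than 9 tags, and the tags outside peaks are not in the tables, so neither ChIP nor input tags are known over HLA-DR, HLA-DQ and HLA-DP. HLA-DRB1 also has close copies in the genome, HLA-DRB5 among them, and how reads that fit several places were handled is not given in the sources used here. Distances were measured from the intervals, and some RefSeq genes in GRCh38.p14 are longer. HLA-DQA1 is 17.9 kb against an interval of 6 kb, HLA-DPA1 16.2 kb against 9 kb and HLA-DPB1 13.7 kb against 11 kb.

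The stretch between HLA-DQB1 and HLA-DMB did hold peaks, although none lay within 25 kb of the 10 genes. There were 4 peaks over 268 kb, with 12, 26, 24 and 74 tags, and all 4 had an FDR of at most 5%. The strongest, at chr6:32821322-32822961, held 74 tags at 9.83 times the expected number (7.72 to 12.3) and lay 79.5 kb before HLA-DMB. HLA-DQA2, HLA-DQB2 and HLA-DOB lie in this stretch in RefSeq order. So do TAP2, TAP1, PSMB8 and PSMB9, which supply peptides to MHC class I. The peaks were not assigned to single genes, because the RefSeq table is of another build. Between HLA-DMA and HLA-DPA1 a peak of 29 tags lay at chr6:32986338-32987394, at 9.34 times the expected number (6.26 to 13.4).

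**Figure D3:**
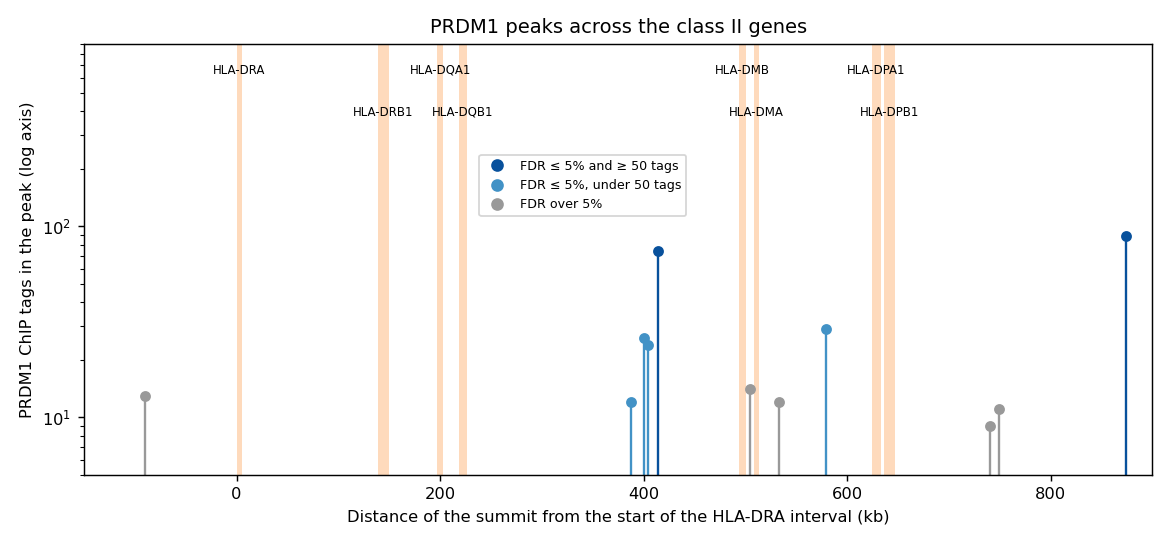
Each line is a PRDM1 peak by the distance of its summit from the start of the HLA-DRA interval in kb (x) and its ChIP tags (y, log axis); shaded bands are the 8 class II genes of chromosome 6 and colours give the limits passed. The bands of HLA-DRA to HLA-DQB1 and of HLA-DPA1 and HLA-DPB1 have no peak beside them, and the tallest line between HLA-DQB1 and HLA-DMB is the 74-tag peak.

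The weak calls share 1 limit. A peak needed a p of 1e-05 or less to be listed, so a peak of few tags could enter only with a raised ratio. Peaks of 9 to 11 tags numbered 2473 in the complete list. The lowest score in the complete list was 50.01. Scores close to that floor were 58.68 at the peak before CIITA and 66.34 at CD74. So were 65.73 at the 12-tag peak near HLA-DMA and 60.98 at the 14-tag peak. The 34-tag CIITA peak scored 145.25, and the main CIITA peak lay far from the floor, with a score of 2492.06. All 6 lower bounds of the ratio were above 1, which follows from the p cutoff and is no separate support for these peaks.

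**Figure D4:**
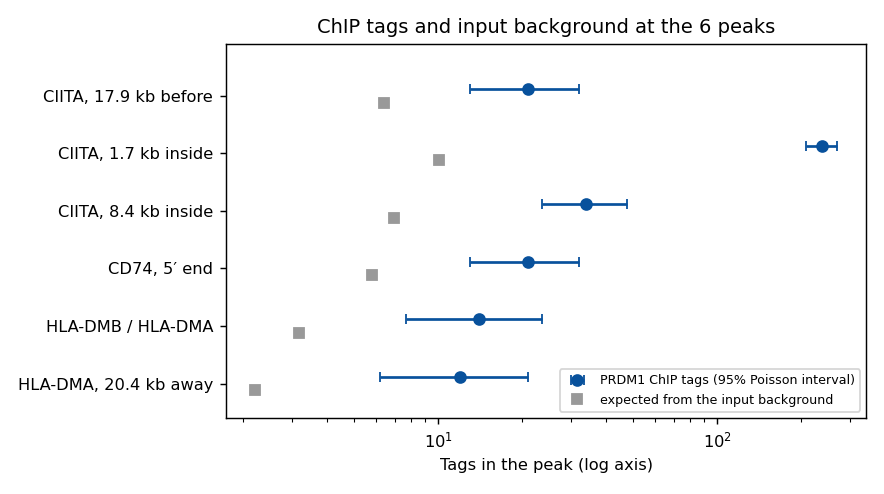
Blue points are the PRDM1 ChIP tags of each of the 6 peaks with exact 95% Poisson intervals, and grey squares the tags expected from the input background on the same scale (x, log axis); rows are the peaks. The CIITA peak 1.7 kb inside the interval holds 237 tags against 10.1 expected, and the other peaks hold 12 to 34 tags against 2.21 to 6.94.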

How the data were processed

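PRDM1 ChIP and input DNA of U266 cells were sequenced in 1 library each. CASAVA 1.8.2, Bowtie 0.12.7 and MACS 1.4 were used, per the submitters' processing notes. Peaks were called by the authors on merged alignments with MACS 1.4.1 at a p cutoff of 1e-05, per the file headers. The headers give 7854466 ChIP and 8556458 input tags after removal of duplicates, or 2.91 and 3.17 per kb of effective genome. The deposited tag counts are raw counts per peak. The score is 10 times the −log10 p, the fold is the ratio of summit height to local background, and the FDR is a percent, all as deposited by the authors. The build is not given in the sources used here. Coordinates are treated as GRCh37, the build the gene intervals are given in. They are 1-based as deposited.

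The summit is the start plus the deposited summit offset. The expected tags were solved from the deposited score, with tags multiplied by the input to ChIP ratio of 1.09 and rounded down. The background is the highest of the genome mean and input windows of 1000 and 10000 bp, and may include the input count over the peak itself. The expected tags at the main CIITA peak, 11 on the scale of the input, fit such a count. Fold times background gave a whole summit height within 0.06 tags for 98.7% of 9667 peaks. Ratios use the tags multiplied by 1.09 without rounding. Their exact 95% Poisson intervals are on the ChIP tags alone, with the expected tags taken as exact. The solving was tested on simulated data. Python 3.11.15, scipy 1.17.1 and pandas 2.3.3 were used.

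The 10 genes and the motif letters were chosen with earlier results of these data known. All 10 are named, with every peak within 25 kb, the nearest peaks for a gene with none, and the nearest peak past the stricter limits. Other distances, positions, limits and scalings were tried. Other genes of the pathway, such as RFX5 or CTSS, were not analysed here, since no annotation of this build was used.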

Additional observations from a re-analysis of the deposited data

How the results depend on the processing

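Of the 10 genes, 4 had a peak at 10 kb and 25 kb and 5 at 50 kb, and the middle or any overlap of the peak in place of its summit also gave 4 genes and 6 peaks. The number of peaks was 6 at 25 kb, 4 at 10 kb and 7 at 50 kb. Inside the intervals alone it was 2 peaks at 1 gene, CIITA. That count leaves out peaks beside a gene, and also the CD74 summit, 0.27 kb outside and within the rounding of the interval. With an FDR of at most 5% it was 2 peaks at 1 gene, and with 50 tags as well 1 peak at 1 gene, CIITA in both, since 4 of the 6 peaks have a higher FDR. At 100 kb, a distance chosen after seeing the data, it was 12 peaks at 7 genes, by the wider window. HLA-DRB1, HLA-DQA1 and HLA-DQB1 had none even then. The ratio of tags to expected tags stayed within the interval of the reported value in 11 of 12 comparisons of rounding and scaling. The exception was the main CIITA peak, at 28.7 with unscaled tags and 23.5 as reported, the cause of which was not tested. No paired analysis was possible because neither library had a replicate. The pathway list was not run, and motifs were searched only in the RefSeq promoter windows. No listed peak held fewer than 9 tags, and binding too weak to be listed at this depth, background and p cutoff is not seen in these tables.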
